A study of Mus musculus with 12 samples.

Results

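The myeloid transcription factors described here are 9 named genes, Cebpa, Cebpb, Cebpd, Cebpe, Spi1, Gfi1, Irf8, Klf4 and Zeb2. They were chosen by name and not by a cut on their values, but with earlier results of these data known. Of the 9, 8 had a column among the 27998 gene columns of the count tables, and Cebpd was not analysed here. Their unique molecular identifiers (UMIs, each marking 1 captured RNA molecule) were counted in single bone marrow cells enriched for c-Kit with magnetic beads, a receptor carried by stem cells and early progenitors. The mice were C57BL/6, and all of them received 5 injections of pIpC, a double-stranded RNA mimic. The sample records give their age at treatment as 8 to 12 weeks, and the paper states a younger age at pIpC. In the mutants pIpC switches on Mx1-Cre, a recombinase driven by an interferon-responsive promoter that acts in hematopoietic cells and also outside them. WT mice lacked Mx1-Cre. E2-KO mice carried Mx1-Cre and 2 floxed alleles of Ezh2, which encodes the histone H3 lysine 27 methyltransferase of Polycomb repressive complex 2. G12D mice carried Mx1-Cre and 1 inducible NRas G12D allele, an activated RAS GTPase behind a removable stop cassette, and G12D/E2-KO mice (G12D_E2-KO in the labels) carried both. Each genotype was sampled at T1, T2 and T3, which lie 2 weeks, 2 months and 4 months behind the injections, with 1 library each, which gives 12 libraries and 3 per genotype. The question of the design is how the 2 mutations, alone and together, change expression in these cells, and since WT mice lacked the recombinase, Mx1-Cre and the mutations cannot be told apart in any comparison with WT.

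These factors divide the work of building granulocytes and monocytes. Spi1 encodes PU.1, an ETS factor needed for all myeloid lineages, and Cebpa opens the step from multipotent progenitors to granulocyte-macrophage progenitors. Cebpb drives granulocyte production under stress and monocyte survival, and Cebpe drives the terminal granulocyte stages with their secondary granules. Gfi1 is a zinc finger repressor that favours granulocytes, Irf8 and Klf4 favour monocytes, and Irf8 and Gfi1 hold each other in check. Zeb2 is a zinc finger repressor at work in stem cells, megakaryocytes and monocyte and dendritic precursors.

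In every sentence below, CPM means UMIs of a gene per 1000000 UMIs, taken over a whole library or over 1 cell class in it, and values after ± are SDs over n = 3 libraries. CPM of 3' counts is compared along 1 gene and not between genes. Statements that libraries overlap or do not overlap describe the values and are no test. The share of all genes without overlap between the same genotypes is not given here. The tables held 35597 cells, of which 32701 were counted once, with 12636998 to 23646292 UMIs per library and the lowest depth in E2-KO T3. The G12D T1 table repeated 2896 cells of G12D/E2-KO T1 (51.3% of its 5648 cells), 1494 of them identical in every gene, and the G12D T1 copies were dropped. The labels do not settle to which of the pair the repeated cells belong. They were counted in G12D/E2-KO T1, where they are 95.1% of the cells and Ezh2 stood at 20.7 CPM, against 86.3 CPM in the G12D T1 cells that were kept, and the T1 values of both genotypes depend on this choice. In the other 65 pairs of libraries no cell matched. Ezh2 stood at 113 ± 17.1 CPM in WT, 30.1 ± 3.90 CPM for E2-KO, 90.3 ± 11.1 CPM for G12D and 22.8 ± 2.31 CPM for G12D/E2-KO, which checks the labels of the deletion. Xist, transcribed in female cells, stood at 1296 to 1357 CPM in the T3 libraries of WT, E2-KO and G12D and at 0.130 CPM in G12D/E2-KO T3, so the T3 comparisons of the double mutant set male against female cells. The 8 T1 and T2 libraries held at most 0.608 CPM of Xist. WT cells formed 26 clusters, of which 23 carried the markers of a named class, and mutant cells took the class of the nearest WT cell. The factors themselves were left out of the genes used for clustering. Among the 4 myeloid classes tested below, every listed marker was detected and higher than in the other cells in all 12 libraries (12 of 12 for stem cells and multipotent progenitors, 9 of 9 for granulocyte-macrophage progenitors with early granulocytes, 11 of 11 for late granulocytes and 8 of 8 for promonocytes). These classes are written HSC/MPP-like, GMP/early GN-like, late GN-like and ProMo-like. Among classes used only for description, this held for 4 of 7 markers of megakaryocyte-erythroid progenitors and for 4 of 9 markers of dendritic cells. The clusters were named from the same markers, so this check is not independent of the names. Whether the libraries come from single or pooled animals is not given in the sources used here, and p-values below measure only the spread between these libraries, with the 3 time points as replicates.

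The promoters of Irf8 and Cebpb are shown because these were the 2 factors whose change passed the test within a cell class (ProMo-like cells, below). Both are the 250 bases before the start of transcription in the RefSeq table of build GRCm38.p6, read 5' to 3' on the plus strand, which has promoter entries for 6 of the 9 factors. Capitals mark matches, on either strand, to TTCNNNGAA (the site read by STAT factors) or TATAAA (the TATA box). Irf8 (chr8:120736108-120736357, before the first of its 2 listed start sites) and Cebpb (chr2:167688665-167688914) read as follows.
Irf8: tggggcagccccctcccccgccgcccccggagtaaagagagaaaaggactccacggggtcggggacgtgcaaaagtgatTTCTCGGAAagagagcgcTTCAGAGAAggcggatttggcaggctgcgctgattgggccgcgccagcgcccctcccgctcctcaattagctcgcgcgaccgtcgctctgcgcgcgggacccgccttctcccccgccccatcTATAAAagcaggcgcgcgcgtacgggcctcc
Cebpb: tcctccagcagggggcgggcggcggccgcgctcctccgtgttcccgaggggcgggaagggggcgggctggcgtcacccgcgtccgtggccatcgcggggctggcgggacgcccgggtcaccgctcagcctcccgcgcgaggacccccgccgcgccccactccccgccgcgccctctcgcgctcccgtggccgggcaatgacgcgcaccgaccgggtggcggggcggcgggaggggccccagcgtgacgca
The window before the first Irf8 start site held 2 matches to TTCNNNGAA, starting 171 and 153 bases before the start, a motif found in 7.02% of 32841 promoters of the same length, and 1 match to TATAAA, found in 12.4%. The Cebpb promoter held neither. It held 5 matches to GGGCGG, the GC box, against 2 in Irf8, and 32.7% of all promoters hold at least 1. The 2 printed windows are rich in CpG, with an observed to expected ratio of 1.03 for Irf8 and 0.985 for Cebpb, higher than in 95.7% and 93.5% of promoters, where the median is 0.374. The window before the second Irf8 start site (not printed) held no match to TTCNNNGAA, TATAAA or GGGCGG, and its CpG ratio was 0.440, higher than in 55.4% of promoters. None of the 3 windows matched GGAAGT, the core read by PU.1 (19.7% of promoters), or TTGCGCAA, the C/EBP palindrome (0.164%). These matches are letters in a window and no measure of binding.

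Among 10 classes of WT marrow Gfi1 had its highest mean in GMP/early GN-like cells and Cebpe in late GN-like cells. Irf8 and Klf4 had theirs in ProMo-like cells, while Cebpa, Cebpb and Spi1 were spread over several classes. These levels describe the classes and carry no test, since the classes were drawn from the same cells. They are given over 10 classes, which add megakaryocyte-erythroid progenitor-like (MEP-like), megakaryocytic (Meg-like), early and late erythroid (EryP/early Ery-like and late Ery-like) and basophil and mast cell-like (baso/mast-like) cells, and an unnamed cluster led by Cd34 and Ccl9.

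Among the C/EBP factors, Cebpa (ENSMUSG00000034957, chromosome 7, 35119293 to 35121928, plus strand in mm10) was highest in baso/mast-like cells at 94.7 ± 38.3 CPM and in the unnamed cluster at 87.1 ± 11.8 CPM, which overlapped. ProMo-like cells at 59.4 ± 3.12 CPM, GMP/early GN-like cells at 54.6 ± 1.56 CPM and HSC/MPP-like cells at 23.1 ± 4.60 CPM followed, each below the one before in all 3 libraries. In late GN-like cells, the next stage of granulocyte development, Cebpa stood at 4.03 ± 1.02 CPM. Cebpe (ENSMUSG00000052435, chromosome 14, 54710360 to 54712174, minus strand) ran the other way. It stood at 25.2 ± 9.78 CPM in HSC/MPP-like cells, 478 ± 40.8 CPM in GMP/early GN-like cells and 1015 ± 93.9 CPM in late GN-like cells, with no overlap between these classes. Late GN-like cells held 73.2 ± 4.68% of all Cebpe UMIs in WT. Cebpb (ENSMUSG00000056501, chromosome 2, 167688915 to 167690418, plus strand) was shared by 3 classes that overlapped, ProMo-like at 277 ± 34.6 CPM, GMP/early GN-like at 254 ± 53.9 CPM and late GN-like at 196 ± 29.3 CPM, and the last did not overlap with the unnamed cluster at 105 ± 4.58 CPM.

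Spi1 (ENSMUSG00000002111, chromosome 2, 91082390 to 91115756, plus strand) was present throughout the myeloid classes. Its level was highest in late GN-like cells at 419 ± 54.2 CPM, without overlap with ProMo-like cells at 290.3 ± 19.3 CPM, which overlapped with GMP/early GN-like cells at 276 ± 56.1 CPM. HSC/MPP-like cells held 164 ± 31.1 CPM and EryP/early Ery-like cells 8.37 ± 0.602 CPM. Gfi1 (ENSMUSG00000029275, chromosome 5, 107716657 to 107726036, minus strand) reached 51.4 ± 10.3 CPM in GMP/early GN-like cells, above all other classes in every library, and 22.3 ± 6.71 CPM in the unnamed cluster, which overlapped with late GN-like cells at 18.6 ± 2.24 CPM. In MEP-like cells Gfi1 had 0 UMIs in all 3 WT libraries.

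Among these 10 classes the monocyte factors peaked together in ProMo-like cells. Irf8 (ENSMUSG00000041515, chromosome 8, 120736358 to 120756694, plus strand) stood at 439 ± 16.2 CPM there, ahead of the unnamed cluster at 151 ± 65.2 CPM, HSC/MPP-like cells at 93.5 ± 35.7 CPM and GMP/early GN-like cells at 39.6 ± 24.3 CPM, of which only the last and the unnamed cluster did not overlap. Late GN-like cells held 3.42 ± 2.27 CPM. Klf4 (ENSMUSG00000003032, chromosome 4, 55527143 to 55532466, minus strand) stood at 38.1 ± 4.38 CPM in ProMo-like cells and at no more than 2.17 CPM on average in any other of the 10 classes, and ProMo-like cells, 5.56% of WT cells, held 73.3 ± 12.7% of its UMIs. Zeb2 (ENSMUSG00000026872, chromosome 2, 44983632 to 45117395, minus strand) was the factor shared with the megakaryocytic and erythroid side. Its levels in Meg-like cells at 251 ± 42.7 CPM, ProMo-like cells at 181 ± 44.2 CPM and MEP-like cells at 165 ± 22.3 CPM overlapped from 1 class to the next, and EryP/early Ery-like cells at 63.0 ± 6.35 CPM held 28.8 ± 3.61% of its UMIs. The lowest Zeb2 level was that of late GN-like cells at 5.64 ± 0.633 CPM.

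**Figure D1:**
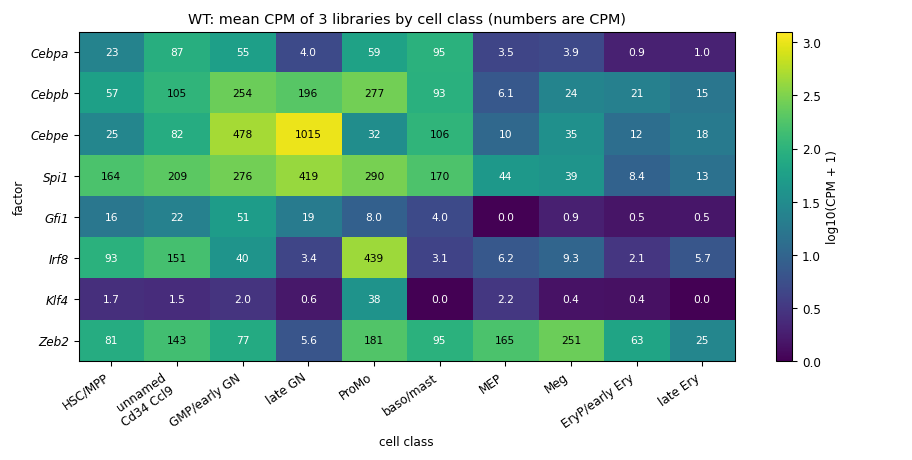
Mean CPM of each factor in each cell class over the 3 WT libraries, with factors in rows, classes in columns, colour for log10(CPM + 1) and the CPM written in each field. Cebpe reached 1015 CPM in late GN-like cells and Irf8 439 CPM in ProMo-like cells, while Zeb2 was spread over Meg-like, ProMo-like and MEP-like cells.

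The low level of Cebpe in HSC/MPP-like cells was set beside that of a class outside the myeloid lineage. EryP/early Ery-like cells, which should lack Cebpe, held 12.2 ± 1.001 CPM of it, and after each cell was thinned to 1000 UMIs 2.12% of HSC/MPP-like and 1.30% of EryP/early Ery-like WT cells had a Cebpe UMI (11.3% and 14.9% before thinning, at median depths of 5178 and 14060.0 UMIs per cell). For Irf8 the same shares after thinning were 7.18% and 0.221% (23.1% and 2.84% before). The Irf8 share of HSC/MPP-like cells was well above the erythroid share at either depth, and the Cebpe share was above it after thinning and below it before.

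Over all cells of a library together, none of the 8 factors passed the test in any comparison of genotypes or time points. The test was edgeR's quasi-likelihood test over 13143 genes with the time point as a block and Benjamini-Hochberg adjustment, called at an adjusted p under 0.05. The share of all genes called was 1.65% for E2-KO against WT, 0.107% for G12D against WT, 5.71% for G12D/E2-KO against WT, 1.42% for G12D/E2-KO against G12D, 0.0913% for G12D/E2-KO against E2-KO, 0.0913% for the interaction of the 2 mutations, 0% for T2 against T1 and 0% for T3 against T1. At an unadjusted p under 0.05, 2 of the 8 factors were lower in E2-KO than in WT (as were 7.25% of all genes), 4 were higher in G12D (6.13% of genes), 4 were higher in G12D/E2-KO than in WT (14.2%), 5 were higher in G12D/E2-KO than in E2-KO (9.90%), and 0 differed between G12D/E2-KO and G12D or in the interaction. DESeq2, the other tool run, called 1 factor in E2-KO (Cebpe, adjusted p 0.0213), 3 in G12D (Cebpa, Cebpb and Klf4, 0.0118, 0.0481 and 0.0304), the same 3 in G12D/E2-KO against WT (0.0288, 0.0209 and 0.0294), 3 in G12D/E2-KO against E2-KO (Cebpa, Cebpb and Spi1) and 0 in the other 4 comparisons. Of all genes DESeq2 called 3.5% for E2-KO, 1.08% for G12D and 10.1% for G12D/E2-KO against WT, 5.3% for G12D/E2-KO against E2-KO, 2.75% for G12D/E2-KO against G12D, 0.441% for the interaction, 0.0457% for T2 and 0.167% for T3 against T1. In such sums, fewer cells of a type and less RNA per cell cannot be told apart.

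The monocyte factor Klf4 had the largest fitted difference from WT among the 8 in G12D. It stood at 3.98, 4.74 and 3.33 CPM for WT, 5.26, 3.57 and 5.86 CPM for E2-KO, 13.5, 4.78 and 10.8 CPM for G12D and 9.52, 8.35 and 7.97 CPM for G12D/E2-KO, for T1, T2 and T3 in this order as in all lists of 3 values below. All 3 G12D/E2-KO libraries lay above all 3 WT libraries, and so did all 3 G12D libraries, the G12D T2 library only just. The log2 difference from WT was 1.22 (SE 0.33, adjusted p 0.260) for G12D and 1.02 (SE 0.33, adjusted p 0.0831) for G12D/E2-KO. The granulocyte-monocyte initiator Cebpa stood at 16.5, 21.4 and 17.4 CPM for WT, 21.2, 18.9 and 16.9 CPM for E2-KO, 41.0, 25.2 and 37.8 CPM for G12D and 27.2, 24.6 and 45.6 CPM for G12D/E2-KO, with no overlap between WT and either genotype that carried NRas G12D. Its log2 difference from WT was 0.92 (SE 0.22, adjusted p 0.208) for G12D and 0.70 (SE 0.21, adjusted p 0.0740) for G12D/E2-KO.

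Cebpb, the C/EBP factor of stress granulopoiesis, stood at 108, 138 and 95.4 CPM for WT, 174, 145 and 65.1 CPM for E2-KO, 224, 169 and 199 CPM for G12D and 260.1, 196 and 165 CPM for G12D/E2-KO. G12D and G12D/E2-KO did not overlap with WT, and E2-KO T1 and T2 were above all WT libraries while E2-KO T3 was below them. The log2 difference from WT was 0.84 (SE 0.25, adjusted p 0.292) for G12D and 0.78 (SE 0.25, adjusted p 0.0839) for G12D/E2-KO. Irf8, which directs progenitors to monocytes and dendritic cells, stood at 71.2, 61.4 and 46.0 CPM for WT, 64.4, 59.0 and 45.03 CPM for E2-KO, 133, 68.8 and 110.0 CPM for G12D and 123, 69.4 and 51.8 CPM for G12D/E2-KO, where the G12D values overlapped with WT and T2 was the lowest of the 3. Its log2 difference from WT was 0.84 (SE 0.26, adjusted p 0.310) for G12D and 0.35 (SE 0.26, adjusted p 0.411) for G12D/E2-KO. Without both T1 libraries that shared cells the last was 0.01. Dendritic cells also carry Irf8, and the summed dendritic cell (DC) markers over all cells stood at 204, 168 and 90.0 CPM for WT and at 1709, 299 and 89.5 CPM for G12D/E2-KO, where T1 was the highest of the 12 libraries. DC-like cells were 0.464 ± 0.342% of WT cells and 2.19 ± 2.22% of G12D/E2-KO cells. Their part in the Irf8 difference over all cells was not tested.

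Cebpe and Spi1 had their lowest mean levels over all cells in E2-KO. Cebpe, the factor of terminal granulocytes, stood at 259.8, 342 and 283 CPM for WT and 209, 198 and 92.6 CPM for E2-KO, and the 2 genotypes did not overlap. Its log2 difference was -0.96 (SE 0.30, adjusted p 0.161), and without WT replicate 1 the adjusted p was 0.0471. Spi1, the master ETS factor, stood at 155, 219 and 153 CPM for WT and 149.8, 152 and 70.8 CPM for E2-KO, a log2 difference of -0.60 (SE 0.24, adjusted p 0.253). Late GN-like cells, which in WT carried 73.2 ± 4.68% of Cebpe and 51.1 ± 5.54% of Spi1 UMIs, made up 32.3 ± 4.12% of WT cells and 13.6 ± 1.87% of E2-KO cells. Gfi1 stood at 11.5, 19.1 and 10.9 CPM for WT and 17.0, 21.0 and 30.5 CPM for G12D/E2-KO, overlapping, with a log2 difference of 0.65 (SE 0.24, adjusted p 0.119), which leaving out 1 library moved to between 0.39 (without G12D/E2-KO replicate 3) and 0.99 (without WT replicate 2). Zeb2 stayed between 62.0 and 90.4 CPM in the 12 libraries and had no comparison of genotypes with an unadjusted p under 0.05.

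Leaving out 1 library at a time changed the count of factors called over all cells in 3 comparisons. E2-KO against WT gave 1 call without WT replicate 1 (Cebpe). G12D against WT gave 2 calls without G12D replicate 2 (Cebpa and Klf4). For G12D/E2-KO against WT, 3 factors were called without WT replicate 2 (Cebpa, Gfi1 and Klf4), 2 without G12D replicate 2 (Cebpa and Klf4) and 1 without E2-KO replicate 3 (Cebpb). Of the differences given above, Cebpb in G12D (0.56 to 1.04) and Irf8 in G12D (0.54 to 1.10) and G12D/E2-KO (0.06 to 0.61) against WT also moved by over 1.5 times. The medians of the 8 log2 differences were -0.04 (E2-KO), 0.68 (G12D) and 0.50 (G12D/E2-KO) against WT, against 0.00, -0.01 and 0.01 for all genes tested.

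**Figure D2:**
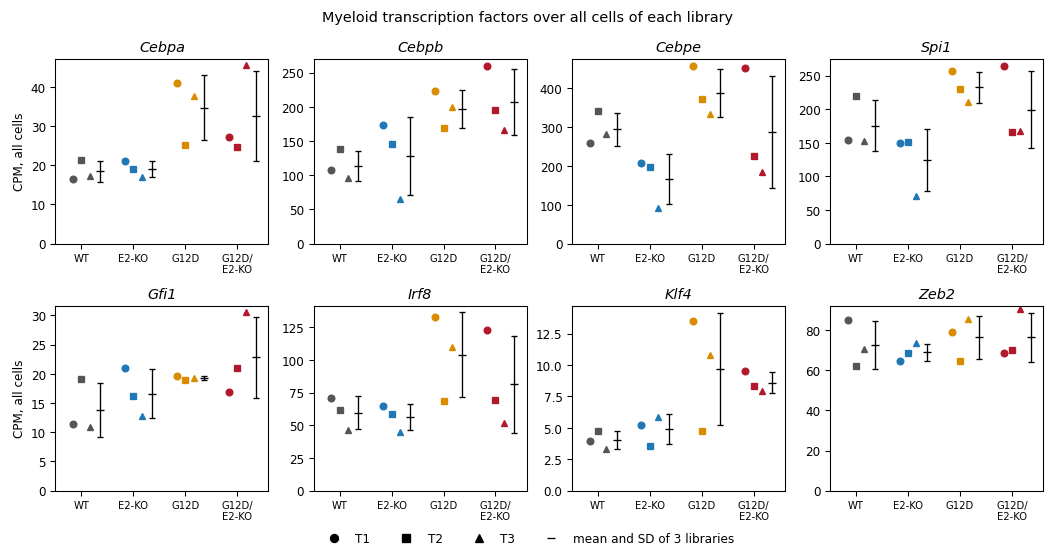
CPM of each of the 8 factors over all cells of each library, with 1 panel per factor, points for the 3 time points, and the mean and SD per genotype. All 3 G12D and all 3 G12D/E2-KO libraries lay above the WT libraries for Cebpa, Cebpb and Klf4, and all 3 E2-KO libraries lay below WT for Cebpe. None of these differences passed the edgeR test.

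The differences were also described at a fixed class mix. Every library was given the WT mean share of UMIs in each of 9 classes, which hold 94.3% of WT UMIs. The levels within the classes were left as they were. No test was run on the values at this mix, so they do not give the part that make-up had in a difference. The log2 differences are means of 3 time-matched pairs. ProMo-like cells, 5.56% of WT cells, were 10.7 ± 3.29% of G12D cells. With the WT mix, the difference of G12D from WT went from 1.16 to 0.27 for Klf4, from 0.77 to 0.07 for Irf8, from 0.89 to 0.28 for Cebpa and from 0.80 to 0.29 for Cebpb. For Klf4, Cebpa and Cebpb it was positive in 3 of 3 pairs, but for Klf4 it was 0.67 at T1, 0.10 at T2 and 0.06 at T3, and T1 is the G12D library whose repeated cells were dropped. For Irf8 it was positive in 2 of 3 pairs and turned to -0.04 with the marker gate. In E2-KO the difference of Cebpe from WT went from -0.90 to -0.33, with -0.06 at T1, -0.02 at T2 and -0.93 at T3, so most of what was left lay at E2-KO T3, the library of lowest depth.

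In G12D/E2-KO Klf4 and Irf8, the 2 factors of the monocyte branch, differed from WT in opposite directions at the fixed mix. The difference from WT went from 1.11 to 0.64 for Klf4, higher in 3 of 3 pairs, and from 0.38 to -0.35 for Irf8, lower in 3 of 3 pairs. For Cebpb it went from 0.85 to 0.47, higher in 3 of 3 pairs. For Cebpa it went from 0.77 to 0.05 and for Gfi1 from 0.73 to 0.20, each higher in 1 of 3 pairs at the fixed mix. Against G12D, Irf8 differed by -0.40 over all cells and by -0.42 with the WT mix, where it was lower in 3 of 3 pairs. The 9 classes leave out the DC-like class, which had 3 to 144 cells per library. With it added, an alternative chosen after seeing the data, the Irf8 difference of G12D/E2-KO from WT was -0.36, again lower in 3 of 3 pairs, and that from G12D was -0.42.

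**Figure D3:**
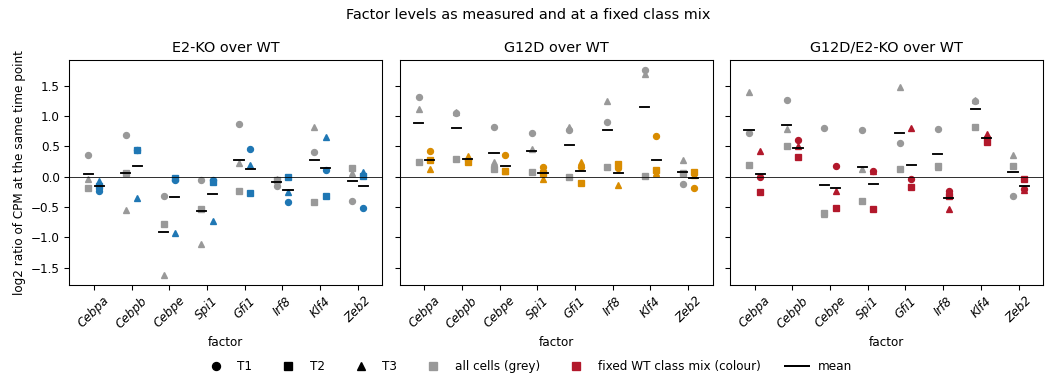
Log2 difference from WT of each factor in each mutant genotype, over all cells and with every library given the WT share of each class, with points for the 3 time points and bars for the mean. Over all cells Irf8 in G12D/E2-KO was above 0 on average, and with the WT mix all 3 time points were below 0.

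Within ProMo-like cells, the monocyte-committed class, 2 of the 8 factors passed the test in G12D/E2-KO against WT, where 2.89% of all genes tested in this class did. Cebpb rose and Irf8 fell. Each library held 113 to 344 such cells. No factor passed in E2-KO against WT (1.06% of genes called, and at an unadjusted p under 0.05 1 factor higher and 2 lower, beside 6.29% and 5.61% of genes), in G12D against WT (0.187%, 1 higher and 0 lower, beside 2.90% and 1.69%) or in G12D/E2-KO against G12D (3%, 0 higher and 2 lower, beside 7.74% and 8.26%). DESeq2 called 0 factors in each of the 4 comparisons, and 0.264% to 1.68% of genes.

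Irf8 in ProMo-like cells stood at 443, 422 and 454 CPM for WT, 350.3, 323 and 294 CPM for E2-KO, 491, 462 and 305 CPM for G12D and 381, 252 and 297 CPM for G12D/E2-KO. All 3 G12D/E2-KO and all 3 E2-KO libraries were below every WT library, while G12D T1 and T2 were above every WT library and G12D T3 was below them. The log2 difference of G12D/E2-KO from WT was -0.59 (SE 0.16, adjusted p 0.0379), lower in 3 of 3 pairs, that from G12D was -0.54 (SE 0.16, adjusted p 0.0580) and that of E2-KO from WT was -0.44 (SE 0.16, adjusted p 0.235). Leaving out 1 library moved the last to between -0.56 and -0.27. Cebpb stood at 304, 238 and 289 CPM for WT, 397, 311 and 209 CPM for E2-KO, 417, 341 and 338 CPM for G12D and 589.9, 412 and 353 CPM for G12D/E2-KO. All 3 G12D and all 3 G12D/E2-KO libraries were above every WT library, with G12D/E2-KO T1 the highest of the 12. The log2 difference from WT was 0.61 (SE 0.16, adjusted p 0.0363) for G12D/E2-KO, higher in 3 of 3 pairs, and 0.43 (SE 0.16, adjusted p 0.843) for G12D. Leaving out 1 library moved the last to between 0.32 and 0.67.

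Both calls depended on the libraries and settings. Over 20 settings the adjusted p of Irf8 ran from 0.0125 to 0.359 and passed in 11, with a log2 difference from -0.75 to -0.42, and that of Cebpb ran from 0.00388 to 0.218 and passed in 10, with a difference from 0.49 to 0.84. The Irf8 call was lost without WT replicate 2 (adjusted p 0.0902) or 3 (0.359), E2-KO replicate 1 (0.0538), G12D replicate 1 (0.0558) or 2 (0.0553), or G12D/E2-KO replicate 2 (0.243) or 3 (0.0658). The Cebpb call was lost without WT replicate 1 (0.216) or 2 (0.218), G12D replicate 2 (0.0657), or G12D/E2-KO replicate 1 (0.138) or 2 (0.155). With DESeq2 the adjusted p was 0.0519 for Irf8 and 0.0604 for Cebpb. With clusters at resolution 1 it was 0.0357 for Irf8 and 0.0801 for Cebpb, and with classes set by a marker gate 0.0142 and 0.115, so that Irf8 passed under both and Cebpb under neither. Without the block for time point it was 0.120 for Irf8 and 0.177 for Cebpb. Without both T1 libraries that shared cells, an alternative chosen after seeing the data, it was 0.0248 for Irf8 and 0.168 for Cebpb. The difference of Irf8 from G12D passed without WT replicate 3 (adjusted p 0.0472), E2-KO replicate 3 (0.0392), G12D replicate 3 (0.0300) or G12D/E2-KO replicate 1 (0.0368), and also with no filter (0.0279), resolution 1 (0.0180) and the marker gate (0.0257).

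Klf4, which specifies Ly6C-high monocytes, stood in ProMo-like cells at 36.2, 43.1 and 34.996 CPM for WT, 37.1, 30.5 and 46.7 CPM for E2-KO, 67.9, 42.0 and 36.3 CPM for G12D and 57.9, 53.0 and 62.3 CPM for G12D/E2-KO. Each G12D/E2-KO library was above every WT library, while G12D T2 and T3 lay within the WT range. The log2 difference from WT was 0.50 (SE 0.21, adjusted p 0.212) for G12D/E2-KO, 0.23 with the marker gate, and 0.36 (SE 0.21, adjusted p 0.999) for G12D. Leaving out 1 library moved the last to between 0.04 and 0.58. Cebpe, a granulocyte factor at low level here, stood at 34.4, 26.8 and 34.3 CPM for WT and 58.3, 47.5 and 48.9 CPM for G12D/E2-KO, without overlap, and its difference was 0.64 (SE 0.21, adjusted p 0.0965), which with clusters at resolution 1 was 0.17 (adjusted p 0.749). Zeb2 stood at 230.2, 144 and 170.0 CPM for WT and 149.6, 122 and 117 CPM for G12D/E2-KO, overlapping, and its difference was -0.52 (SE 0.16, adjusted p 0.0753). Zeb2 passed without WT replicate 2 (adjusted p 0.0488) or E2-KO replicate 3 (0.0327), and Cebpe passed without E2-KO replicate 3 (0.0487). With no filter both passed (Zeb2 0.0448, Cebpe 0.0452). For Cebpa, Spi1 and Gfi1 the differences of G12D/E2-KO from WT lay between -0.20 and 0.13, none with an unadjusted p under 0.05.

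Markers of other cell types were summed in the same ProMo-like cells. The late GN list ran from 6494 to 12772 CPM in WT and from 6270.3 to 11465 CPM in G12D/E2-KO, which overlap, and from 3132 to 5096 CPM in E2-KO, below both. The late Ery list ran from 1177 to 4234 CPM in WT and from 669.8 to 899 CPM in G12D/E2-KO, without overlap, and the T/NK lymphoid list from 1.81 to 6.81 CPM and 10.7 to 33.8 CPM, also without overlap. The stroma/endothelium list ran from 34.1 to 48.6 CPM in WT and from 28.1 to 33.0 CPM in G12D/E2-KO, without overlap, and the other 5 lists overlapped between these genotypes. Their part in the results for Cebpb and Irf8 was not tested.

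**Figure D4:**
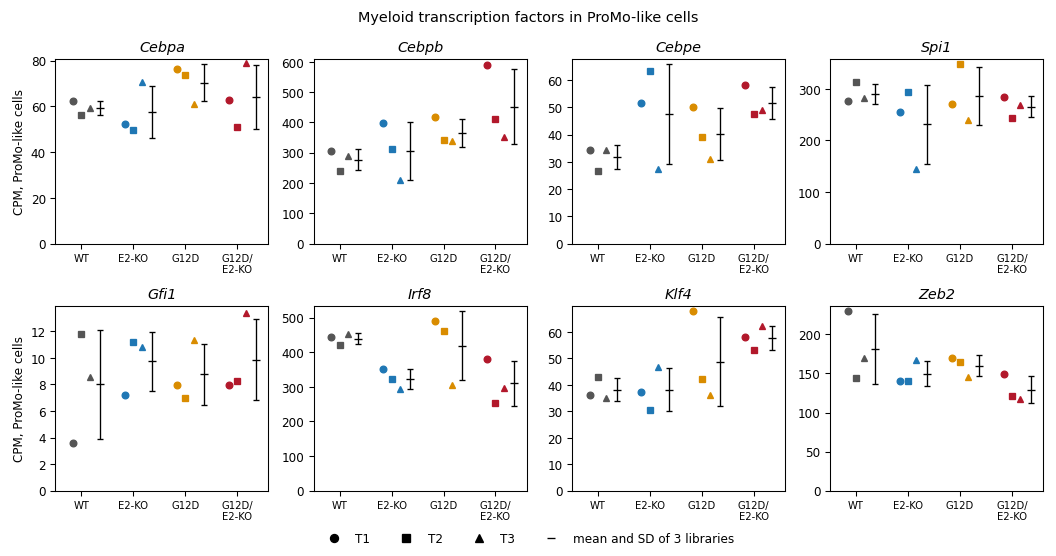
CPM of the 8 factors in ProMo-like cells of each library, with 1 panel per factor, points for the 3 time points, and the mean and SD per genotype. All 3 G12D/E2-KO libraries lay below WT for Irf8 and above WT for Cebpb and Klf4.

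In HSC/MPP-like cells, 117 to 442 per library, no factor passed the test. The share of genes called there was 0.148% for E2-KO, 0.182% for G12D and 0.738% for G12D/E2-KO against WT and 0.148% for G12D/E2-KO against G12D. Klf4 was too low to be tested, and of the other 7 factors 2, 0, 3 and 2 were lower and 0 were higher in these comparisons at an unadjusted p under 0.05, beside 4.25%, 2.54%, 6.13% and 5.18% of all genes lower. DESeq2 called 0 factors and 0.102% to 0.375% of genes. Spi1, which stem cells need for every myeloid fate, stood at 181, 183 and 128 CPM for WT, 117, 161 and 77.9 CPM for E2-KO, 129, 175 and 93.1 CPM for G12D and 122, 75.9 and 105 CPM for G12D/E2-KO, where each G12D/E2-KO library was below every WT library. Its difference in G12D/E2-KO was -0.64 (SE 0.19, adjusted p 0.134). Leaving out 1 library at a time gave -0.82 to -0.33 (adjusted p 0.0283 to 0.676). It passed without G12D/E2-KO replicate 3 (adjusted p 0.0283) or with no filter (0.0259), and was -0.33 without G12D/E2-KO replicate 2. Gfi1, which holds stem cells in quiescence, stood at 20.3, 18.9 and 8.65 CPM for WT and 6.97, 8.24 and 5.31 CPM for G12D/E2-KO, without overlap, a difference of -1.14 (SE 0.37, adjusted p 0.192), which was -0.49 with clusters at resolution 1. In the same cells the summed T/NK lymphoid markers ran from 26.0 to 211 CPM for WT and from 284 to 348 CPM for G12D/E2-KO, and the macrophage markers from 26.0 to 79.2 CPM and 8.24 to 19.1 CPM, both without overlap. The late GN markers in these cells stood at 15367, 6627 and 9359.5 CPM for WT and at 6723, 3743 and 1766 CPM for G12D/E2-KO, lower in 3 of 3 pairs though the ranges overlap. Their part in the Spi1 and Gfi1 differences was not tested. At resolution 1 the HSC/MPP cluster held 713 WT cells, against 550 at resolution 2, and was led by Prss34, Prg2, Cpa3 and Mcpt8. Prss34, Cpa3 and Mcpt8 are baso/mast markers, so values at resolution 1 are for a broader class.

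Cebpe in HSC/MPP-like cells stood at 35.5, 16.1 and 24.0 CPM for WT, 3.46, 10.1 and 3.54 CPM for E2-KO, 34.8, 13.4 and 17.2 CPM for G12D and 16.5, 12.4 and 12.7 CPM for G12D/E2-KO, and E2-KO did not overlap with WT. The log2 difference of E2-KO from WT was -1.97 (SE 0.43, adjusted p 0.0628). Over 20 settings it ran from -2.99 to -0.50 and passed in 4. The smallest size was that with clusters at resolution 1, where the HSC/MPP cluster also carried baso/mast markers. The difference passed with no filter (0.000971) and without E2-KO replicate 2 (adjusted p 0.00557), G12D/E2-KO replicate 2 (0.0476) or G12D/E2-KO replicate 3 (0.0209). Before thinning, a Cebpe UMI was seen in 11.2, 8.38 and 14.5% of WT HSC/MPP-like cells. For E2-KO it was 1.73, 4.19 and 1.27% of 173, 191 and 158 cells, so the E2-KO levels rest on few UMIs. Leaving out E2-KO replicate 2 dropped the highest of these E2-KO shares. In these cells the summed late GN markers ran from 6627 to 15367 CPM in WT and from 2467 to 3117 CPM in E2-KO, and in EryP/early Ery-like cells Cebpe stood at 12.5, 12.95 and 11.03 CPM for WT and 7.24, 5.71 and 3.798 CPM for E2-KO. Their part in the Cebpe difference was not tested. Irf8 stood at 130.0, 91.8 and 58.6 CPM for WT and 142, 106 and 12.7 CPM for G12D/E2-KO, with G12D/E2-KO T3 the lowest of the 12, and its difference was -0.11 (SE 0.49, adjusted p 0.960) and between -0.49 and 0.34 with 1 library left out. The summed DC markers in the same cells stood at 174, 261 and 196 CPM for WT and at 334, 202 and 54.2 CPM for G12D/E2-KO, with G12D/E2-KO T3 again the lowest of the 12, and their part in the Irf8 values was not tested.

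In GMP/early GN-like cells, 234 to 843 per library, no factor passed the test. The share of genes called was 1.05% for E2-KO, 0.135% for G12D and 2.25% for G12D/E2-KO against WT and 2.79% for G12D/E2-KO against G12D, and DESeq2 called 0 factors and 0.269% to 1.47% of genes. At an unadjusted p under 0.05, Cebpa and Cebpe were lower in E2-KO (as were 6.29% of genes), Cebpb was higher in G12D/E2-KO than in WT (8.34%), Cebpa was lower in G12D/E2-KO than in G12D (8.96%), and 0 factors differed in G12D. Cebpa stood at 54.7, 53.1 and 56.2 CPM for WT, 42.6, 43.0 and 45.1 CPM for E2-KO, 72.5, 61.1 and 61.2 CPM for G12D and 51.3, 42.0 and 69.3 CPM for G12D/E2-KO, where each E2-KO library was below and each G12D library above the WT range. Its log2 difference from WT was -0.33 (SE 0.15, adjusted p 0.352) for E2-KO and 0.30 (SE 0.15, adjusted p 0.998) for G12D. In the same cells the summed late Ery markers ran from 2075 to 2613 CPM for WT and from 440 to 1096 CPM for G12D, without overlap. Their part in the Cebpa difference was not tested. Cebpb stood at 264, 302 and 196 CPM for WT and 438, 309 and 272 CPM for G12D/E2-KO, overlapping, a difference of 0.37 (SE 0.16, adjusted p 0.256). Leaving out 1 library moved it to between 0.22 and 0.49.

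In late GN-like cells, 340 to 1201 per library, no factor passed the test either. The share of genes called was 2.25% for E2-KO, 0.0987% for G12D and 4.45% for G12D/E2-KO against WT and 2.77% for G12D/E2-KO against G12D, and DESeq2 called 0 factors and 0.208% to 3.32% of genes. Klf4 was too low to be tested. At an unadjusted p under 0.05, Cebpe and Zeb2 were lower in E2-KO (8.13% of genes were), Cebpa was higher in G12D (2.38%), 0 factors differed between G12D/E2-KO and WT, and Cebpa, Cebpe and Spi1 were lower in G12D/E2-KO than in G12D (8.73%). Cebpe stood at 971, 1123 and 952 CPM for WT, 947, 1149 and 500.2 CPM for E2-KO, 1315, 1201 and 1052 CPM for G12D and 1091, 799.9 and 855 CPM for G12D/E2-KO. E2-KO T3, the library of lowest depth, held the lowest value, and E2-KO T1 and T2 lay near WT. The log2 difference was -0.44 (SE 0.20, adjusted p 0.255) for E2-KO against WT and -0.54 (SE 0.20, adjusted p 0.148) for G12D/E2-KO against G12D, whose libraries overlapped. The last passed without G12D/E2-KO replicate 1 (adjusted p 0.0414) and with no filter (0.0213), and Zeb2 in E2-KO against WT passed with no filter (0.0433). Spi1 in the same cells stood at 404, 479 and 374 CPM for WT and 401, 481 and 222 CPM for E2-KO, again lowest at E2-KO T3. Leaving out 1 library moved the Cebpe difference of E2-KO to between -0.71 and -0.20.

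Irf8 and Gfi1 stand for the monocyte and the granulocyte choice of a granulocyte-macrophage progenitor, and their shares of GMP/early GN-like cells did not separate by genotype. With every cell thinned to 1000 UMIs, a UMI of Irf8 was seen in 5.96, 1.39 and 2.95% of WT, 2.83, 3.52 and 3.82% of E2-KO, 5.86, 3.12 and 4.32% of G12D and 4.74, 3.29 and 3.797% of G12D/E2-KO cells. A UMI of Gfi1 was seen in 4.33, 6.28 and 4.64% of WT, 6.61, 5.29 and 6.60% of E2-KO, 5.73, 6.17 and 5.48% of G12D and 5.59, 5.56 and 6.95% of G12D/E2-KO cells. Without thinning, the means were 15.7% to 16.9% for Irf8 and 30.9% to 33.1% for Gfi1. In WT EryP/early Ery-like cells, which should lack both, the thinned shares were 0.221% for Irf8 and 0.0467% for Gfi1, at a median of 14060.0 UMIs per cell against 8270.0 in GMP/early GN-like cells.

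The shares after thinning are means over all possible draws. The share of cells with a UMI of both was 0.0346% to 0.176%, below the product of the Irf8 and Gfi1 shares in 12 of 12 libraries, with a ratio of observed to product between 0.146 and 0.696. The effects of losing Ezh2 (with against without, in both NRas states) and of NRas G12D were tested on 5 measures by exact two-sided sign-flip permutation tests over 6 time-matched pairs, which cannot give a p below 0.03125. The 10 tests were adjusted together, and none passed. The ratio of Cebpe to Cebpa, which follows granulocyte maturation, differed by -0.23 on the log2 scale with NRas G12D, higher in 1 of 6 pairs (exact permutation p = 0.0625, adjusted 0.469). The share with both differed by 0.0397 percentage points with Ezh2 loss, higher in 5 of 6 pairs (exact permutation p = 0.0938, adjusted 0.469).

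**Figure D5:**
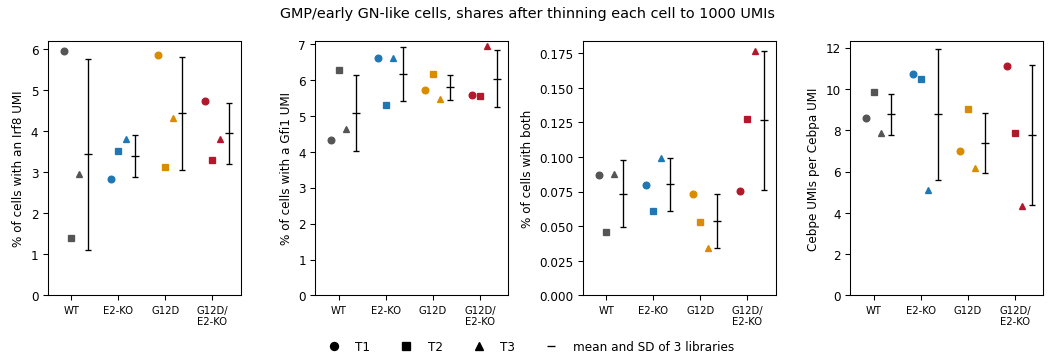
Percent of GMP/early GN-like cells with a UMI of Irf8, of Gfi1 and of both after thinning to 1000 UMIs per cell, and Cebpe UMIs per Cebpa UMI, by genotype, with points for the 3 time points and the mean and SD. The genotypes overlap in the shares of Irf8 and of Gfi1, and the highest Irf8 share was that of WT T1.

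Other regulators of blood cells (51 listed) and genes that the factors are known to bind and activate (35 listed, of which 12 surface receptors and partners, 6 primary granule, 9 late granulocyte and 8 monocyte and dendritic genes) were read in the same fits. In ProMo-like cells of G12D/E2-KO against WT, 4 of 34 tested regulators rose and 0 fell. They were Id1 and Id2, inhibitors of helix-loop-helix factors, at 1.77 (SE 0.19, adjusted p 3.99e-07) and 1.68 (SE 0.39, adjusted p 0.0486), Irf5, a factor of inflammatory monocytes, at 1.03 (SE 0.22, adjusted p 0.00744), and Klf6 at 0.95 (SE 0.25, adjusted p 0.0328). Of 32 tested targets 1 rose, Naaa, which encodes a lysosomal amidase, at 1.54 (SE 0.30, adjusted p 0.00276), and 2 fell, Ly86, which encodes a partner of the receptor Cd180, at -0.65 (SE 0.14, adjusted p 0.00874), and Ctsg, a primary granule protease, at -0.70 (SE 0.16, adjusted p 0.0158). Against G12D, Id1 (0.70) and Stat3 (0.78) rose, and Ctss (-0.84), Ly86 (-0.55) and Ctsg (-0.59) fell, as log2 differences. Ly86 is also a marker from which the ProMo-like class was named, and Ctsg one of the GMP/early GN-like class. The part of these class markers in the Ly86 and Ctsg differences was not tested. The share of all genes called in ProMo-like cells was 2.89% and 3% in these comparisons. Some of the same genes were also called in the single mutants. In E2-KO against WT Id1 (1.56), Irf5 (0.96) and Naaa (1.38) rose, and Lcn2, a secondary granule gene, fell by 1.27 on the log2 scale. The summed late GN markers in these cells, which stand above and include Lcn2 itself, were lower in E2-KO than in WT without overlap. Their part in the Lcn2 difference was not tested. In G12D against WT Id1 rose by 1.07.

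In E2-KO against WT, 2 of 34 tested targets fell and 0 rose in GMP/early GN-like cells, and 1 of 31 fell and 2 rose in late GN-like cells, where no factor was called. Of all genes 1.05% and 2.25% were called. In GMP/early GN-like cells Mmp8, which encodes the neutrophil collagenase, fell by 3.22 and Lcn2 fell by 0.65 on the log2 scale. In late GN-like cells Mmp8 fell by 2.59 and the primary granule genes Prtn3 and Mpo rose by 1.79 and 1.37. Over all cells Mmp8 fell by 3.28. The median log2 difference of the 9 late granulocyte genes in E2-KO was -1.21 in GMP/early GN-like cells, -0.28 in late GN-like cells, -1.46 in ProMo-like cells (8 tested), -1.81 in HSC/MPP-like cells (6 tested) and -1.43 over all cells, against -0.01, 0.00, 0.00, 0.00 and 0.00 for all genes tested. Of these genes Camp, Ltf, Ngp, Lcn2, Mmp8, Cd177 and Retnlg are also late GN markers. The mean of the summed late GN markers was 10451 CPM for WT and 2791 CPM for E2-KO in HSC/MPP-like cells. In ProMo-like cells it was 9303 and 4114 CPM, and in GMP/early GN-like cells 63839 and 54223 CPM. Their part in these medians was not tested. The same primary granule genes rose in late GN-like cells of G12D/E2-KO against WT, by 1.54 and 1.14, and Prtn3 rose against G12D, by 1.19. In late GN-like cells the summed GMP/early GN markers ran from 1726 to 2122 CPM for WT, from 2737 to 4601 CPM for E2-KO and from 2939 to 3909.5 CPM for G12D/E2-KO, and the late GN markers took 46.1% to 50.1% of UMIs for WT, 39.3% to 43.5% for E2-KO and 31.2% to 43.6% for G12D/E2-KO, so WT overlapped with neither in either list. Prtn3 and Mpo are themselves in the GMP/early GN list and Mmp8 in the late GN list, so these sums contain the genes they are set beside. The part of both lists in the differences of Prtn3, Mpo and Mmp8 was not tested. Id1 rose in GMP/early GN-like cells in E2-KO (0.86) and G12D/E2-KO (1.15) against WT and in G12D/E2-KO against G12D (1.01), where Id2 rose as well (0.64), and Naaa rose in G12D/E2-KO against WT (1.58). In HSC/MPP-like cells of G12D/E2-KO, Cybb, which encodes the catalytic subunit of the phagocyte oxidase, fell by 1.72, and Meis1, a stem cell homeobox factor, fell by 0.68 on the log2 scale. The macrophage and late GN markers were also lower in these cells, in 3 of 3 pairs each, and their part in the Cybb difference was not tested. Over all cells of G12D/E2-KO against WT, 3 of 49 tested regulators rose (Id1 by 0.86, Irf5 by 1.18 and the homeobox factor Hoxa9 by 0.65) and 1 fell, Gfi1b, the erythroid and megakaryocytic relative of Gfi1, by 1.20, while 5.71% of all genes were called. EryP/early Ery-like cells were 18.6 ± 2.92% of WT and 10.0 ± 2.82% of G12D/E2-KO cells. HSC/MPP-like cells were 7.32 ± 1.26% and 9.70 ± 1.77%, and Hoxa9 is one of their markers. The part of this make-up in the Hoxa9 and Gfi1b differences was not tested. Against G12D 1 of 49 tested regulators rose over all cells, the immediate early factor Egr1, by 2.28 (SE 0.43, adjusted p 0.0246). The share of all genes called there was 1.42%. The average level of Egr1 was low, at -0.218 on the log2 CPM scale.

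The genes whose pattern was most like each factor were found by Pearson's r (in brackets) of log2(CPM + 1) over 96 points, 8 classes in 12 libraries, among genes with a mean of at least 20 CPM. The points share libraries and depth, so r is a description. Cebpa was most like Prtn3 (0.880), Wsb1 (0.872) and Plac8 (0.866). Cebpb was most like Anxa3 (0.929), Ly6c2 (0.913) and Msrb1 (0.893). Cebpe was most like G0s2 (0.940), Pglyrp1 (0.937) and Cdk2ap2 (0.934). Spi1 was most like Limd2 (0.960), Coro1a (0.958) and Fam107b (0.953). Gfi1 was most like Clec12a (0.885), B4galt6 (0.877) and Pxylp1 (0.864). Irf8 was most like Ly86 (0.924), Ms4a6c (0.880) and BC035044 (0.879). Klf4 was most like Ly86 (0.786), Ms4a6c (0.778) and C1galt1c1 (0.759). Zeb2 was most like Rpl21 (0.886), Rps15 (0.882) and Fbl (0.881). Irf8 and Klf4 had the same 2 genes in front, Ly86 and Ms4a6c. Both are markers from which the ProMo-like class was named, as Prtn3, Plac8 and Clec12a are for the GMP/early GN-like class. A factor high in a class is therefore bound to resemble the markers of that class.

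Over time, with the 4 genotypes as replicates, no factor passed the test. From T1 to T3 Irf8 differed by -0.68 (SE 0.23, adjusted p 0.367), Cebpe by -0.75 (SE 0.26, adjusted p 0.367), Cebpb by -0.62 (SE 0.22, adjusted p 0.367) and Spi1 by -0.55 (SE 0.21, adjusted p 0.367) on the log2 scale, all 4 with an unadjusted p under 0.05 and 0 called by DESeq2. From T1 to T2 only Irf8 had an unadjusted p under 0.05, with a difference of -0.56 (SE 0.23, adjusted p 0.908). Of all genes 6.44% were lower at T3 and 2.77% at T2 at that level. Leaving out 1 library moved the T3 difference to between -1.01 and -0.44 for Cebpe and between -0.75 and -0.35 for Spi1. It moved the T2 difference of Irf8 to between -0.68 and -0.34. All 4 T1 libraries were of male and 3 of the 4 T3 libraries of female cells by Xist, so in those 3 genotypes time and sex cannot be told apart from T1 to T3. E2-KO T3 was the library of lowest depth and held the lowest Cebpb, Cebpe, Spi1 and Irf8 values over all cells.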

How the data were processed

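Single cells of c-Kit-enriched bone marrow from 12 mouse libraries (4 genotypes at 3 time points) were profiled by 10x Genomics 3' sequencing. The deposited values are raw UMI counts per gene and cell. The authors made them with Cell Ranger on mm10 and left out cells above 10% mitochondrial UMIs and doublets called by Scrublet. Depth was 12636998 to 23646292 UMIs per library. All factors were named by rule. The factors and gene lists were chosen with earlier results of these data known. Other listed genes were named when called, up to 5 per list and comparison by adjusted p, and with each factor the 3 genes of highest r.

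Cells found in 2 libraries were counted once. WT cells were clustered with scanpy 1.11.5 and leidenalg 0.10.2 (2000 variable genes less the factors, Ezh2, Nras and sex-linked genes among them, 50 components, 15 neighbours, resolution 2), clusters were named from fixed markers, and mutant cells were classed by the WT cell closest to them. Classes needed 20 cells in every library. UMIs were summed per library and class and tested with edgeR 4.0.16 (TMM, filterByExpr, quasi-likelihood) in R 4.3.3 with time point as a block, over all genes, and called at an adjusted p of 0.05. The pairing by time point comes from the labels: deviations from the genotype mean correlated above 0.1 in 11 of 18 same-time pairs of libraries over all cells (-0.278 to 0.513) and 12 of 18 in ProMo-like cells (-0.178 to 0.442). Exact sign-flip tests used scipy 1.17.1. Alternatives were DESeq2 1.42.0, other scalings, no filter, no block, coarser clusters, a marker gate, cells as deposited, other thinning and leaving out each library. Scripts were tested on simulated data. Counting error alone does not cover differences between animals.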

Additional observations from a re-analysis of the deposited data

Results flagged for a closer look

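Some effects pointed one way, by CPM, in every time-matched pair of one class or genotype and the opposite way in every pair of another. These differences were not tested, and all values are log2 differences. They were picked by this rule from the factors, classes and comparisons looked through, and some opposite directions can arise from the spread between libraries alone. Some values are smaller than their SE, such as Cebpe in G12D against WT at -0.06 (SE 0.31) in HSC/MPP-like cells. Between classes, Cebpe in G12D/E2-KO against WT was -0.79 in HSC/MPP-like and 0.64 in ProMo-like cells (difference -1.43), and 0.17 in ProMo-like cells with clusters at resolution 1. Against G12D it was -0.72 in HSC/MPP-like and 0.26 in ProMo-like cells (difference -0.981), and -0.54 in late GN-like and 0.26 in ProMo-like cells (difference -0.802). Over 20 settings the ProMo-like value ran from 0.07 to 0.53. In G12D against WT, Cebpe was -0.06 in HSC/MPP-like and 0.15 in late GN-like cells (difference -0.214). Gfi1 in G12D/E2-KO against G12D was -1.06 in HSC/MPP-like and -0.01 in ProMo-like cells (difference -1.05), where in ProMo-like cells its CPM was higher in 3 of 3 pairs while the fitted difference was just below 0. Gfi1 was in G12D against WT 0.27 in GMP/early GN-like and -0.28 in late GN-like cells (difference 0.552). Irf8 in E2-KO against WT was 0.60 in HSC/MPP-like and -0.44 in ProMo-like cells (difference 1.04). Cebpa in E2-KO against WT was 0.31 in HSC/MPP-like and -0.33 in GMP/early GN-like cells (difference 0.646). Spi1 in G12D against WT was -0.25 in HSC/MPP-like and 0.10 in late GN-like cells (difference -0.357). Zeb2 in G12D/E2-KO against G12D was 0.49 in late GN-like and -0.41 in ProMo-like cells (difference 0.897).

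The effect of Ezh2 loss without and with NRas G12D differed in direction for 2 factors. For Irf8 in HSC/MPP-like cells it was 0.60 in mice without and -0.63 in mice with NRas G12D (difference 1.23). With the marker gate the values were 0.03 and -0.10. In the same cells the summed DC markers stood at a mean of 210.4 CPM for WT, 349.7 for E2-KO, 416 for G12D and 197 for G12D/E2-KO, and their part in the Irf8 values was not tested. For Zeb2 in late GN-like cells, where its level was near 0, it was -1.38 in mice without and 0.49 in mice with NRas G12D (difference -1.87).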

How the results depend on the processing

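Direction was kept by every called factor under every alternative run. Over all cells edgeR called 0 factors, and DESeq2 called 1 for E2-KO, 3 for G12D and 3 for G12D/E2-KO against WT and 3 for G12D/E2-KO against E2-KO. With only the 2 genotypes compared, G12D/E2-KO against WT gave 1. Other scalings, no filter and no replicate block gave 0 over all cells in each comparison run. Within the 4 myeloid classes, G12D/E2-KO against WT had 2 calls, 0 with DESeq2, 5 with no filter, 0 with no replicate block for time point, and 1 each with clusters at resolution 1, with the marker gate and without the pair of libraries that share cells. E2-KO against WT had 0 calls and 2 with no filter. G12D/E2-KO against G12D had 0 calls, 2 with no filter and 1 each with resolution 1 and the marker gate. Leaving out 1 library gave over all cells 0 to 1 calls for E2-KO, 0 to 2 for G12D and 0 to 3 for G12D/E2-KO against WT, and within classes 0 to 1 in E2-KO, 0 to 4 in G12D/E2-KO against WT and 0 to 2 in G12D/E2-KO against G12D. Within classes the calls of G12D/E2-KO against WT were 4 without E2-KO replicate 3, and 0 without G12D replicate 2 or G12D/E2-KO replicate 2. For no other comparison did the block change a count of calls.

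In GMP/early GN-like cells the marker gate gave -0.216 percentage points for the Irf8 share and -0.160 for the log2 ratio of Irf8 to Gfi1 (NRas G12D effects), and 0.203 for the log2 ratio of Cebpe to Cebpa (Ezh2 effect). Without thinning the Gfi1 share differed by -0.633 with Ezh2 loss and -1.15 with NRas G12D, and with cells as deposited the log2 ratio of Irf8 to Gfi1 differed by 0.0135 with Ezh2 loss. Leaving out 1 library gave Ezh2 effects of -0.747 to 0.304 (Irf8 share), 0.337 to 0.991 (Gfi1 share), 0.0193 to 0.0491 (both), -0.312 to 0.227 and -0.181 to 0.0756 (log2 ratios of Irf8 to Gfi1 and of Cebpe to Cebpa), and NRas G12D effects, in the same order, of 0.551 to 0.978, 0.0644 to 0.549, 0.000397 to 0.0265, -0.0565 to 0.183 and -0.285 to -0.192. With the fixed class mix, the marker gate gave -0.524 for Irf8 and 0.443 for Klf4 in G12D/E2-KO against WT. The cause of these changes was not tested. Depth and 3 libraries per genotype set the precision, which the SE beside each difference gives.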
